A study of Mus musculus with 16 samples.

Results

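Atf4 and 5 genes of the amino acid response were followed in NIH3T3 mouse fibroblasts exposed to azacytidine. The members are the transcription factor Atf4, its feedback pseudokinase Trib3, asparagine synthetase Asns, the transporter subunit Slc3a2 and the aminoacyl-tRNA synthetases Eprs and Yars. They were taken as every probe whose single gene symbol is one of these names, which gave 9 of the 20355 probes on the array. Of these 9 probes, 8 had enough values to be kept, and they cover all 6 genes among the 12420 features compared. The genes were chosen with their ratios in the 3 groups of arrays already known, so their own values are given as a description, without a test.

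Azacytidine is a cytidine analogue that inhibits DNA methyltransferases, and NIH3T3 is an established mouse fibroblast line. Each of the 16 cDNA arrays compared a treated culture with untreated cells of its own line, in 2 dyes. NIH3T3 cells transfected with the receptor tyrosine kinase gene Erbb2 received 10 µM (8 arrays) or 5 µM (4 arrays), and NIH3T3 cells without it received 10 µM (4 arrays). In every group 50% of the arrays had the treated sample in Cy5 and the rest had it in Cy3. The labels give no exposure time, vector, promoter or clone number for the transfected line, and do not say whether arrays came from separate cultures.

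The amino acid response is a branch of the integrated stress response. When amino acids run short, uncharged transfer RNA activates the kinase Gcn2, which phosphorylates the initiation factor eIF2. General translation then slows while the Atf4 message, held back by upstream open reading frames in unstressed cells, is translated. Atf4 protein, with a C/EBP-family partner, binds composite elements in genes of amino acid import, amino acid synthesis and transfer RNA charging, and induces Trib3, which in turn binds and restrains Atf4. The arrays measure RNA and so do not show the translational step.

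Each value is a log2 ratio, treated over untreated, so a negative value means less of the transcript in treated cells. Fitted values of the groups of 8, 4 or 4 arrays are given ± the standard error from limma, a linear model for arrays. That error pools the spread within all groups, so it does not give the spread of a single group. The numerator dye of the deposited ratios is not stated. They were read as Cy5 over Cy3, and the sign was turned on arrays with Cy3-labelled treated RNA. Every direction below is therefore the likely one and would turn if the ratios ran the other way. For untransfected cells the labels name one dye for both channels of an array. Channel 1 was followed there, and the sign of that group alone may be opposite. The ratios give no absolute level, so fibroblast identity cannot be checked from them. RNA came from whole cultures, and fewer cells with a transcript and less transcript per cell cannot be told apart.

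An array gave between 16153 and 18507 ratios. Their interquartile range ran from 0.71 to 1.36 and was widest in Erbb2 cells at 10 µM, on arrays 6, 3 and 5. Values of the 6 genes in that group are therefore also given without these arrays. The number of arrays limits the precision.

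Atf4 (Entrez Gene 11911) is the transcription factor at the centre of the pathway. Its log2 ratios in Erbb2 cells at 10 µM were -0.49, -0.48, -0.32, -0.60, -0.15, -0.36, -0.48 and -0.39 on arrays 1 to 8. At 5 µM they were -0.54, -0.35, -0.30 and -0.26, and in untransfected cells at 10 µM they were -0.75, -0.995, -0.93 and -0.86. All 16 values lay below 0, and each untransfected array lay below each Erbb2 array. Atf4 was the one member with a value below 0 on all 12 Erbb2 arrays, which held for 1.78% of the 7415 features measured on all 16 arrays; 1.39% lay below 0 on all 16. The fitted values were -0.41 ± 0.09 with Erbb2 at 10 µM, -0.37 ± 0.13 with Erbb2 at 5 µM and -0.89 ± 0.13 without Erbb2, which are folds of 0.754, 0.776 and 0.541, treated over untreated. Without arrays 3, 5 and 6 the value in Erbb2 cells at 10 µM was -0.48.

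The array carries a pair of Atf4 probes, and they gave the same sign on 16 of 16 arrays. Probe 11715 had fitted values of -0.42 ± 0.11 for Erbb2 cells at 10 µM, -0.44 ± 0.15 for Erbb2 cells at 5 µM and -0.84 ± 0.15 for untransfected cells. Probe 18438 had -0.40 ± 0.09, -0.29 ± 0.13 and -0.93 ± 0.13 in the same order of groups. The mean absolute difference between the probes on an array was 0.21, smaller than the step between Erbb2 and untransfected cells. Before any array was turned, the sign of both probes was opposite to the dye label of the treated RNA on all 16 arrays. Were the deposited values treated over untreated already, Atf4 would then have -0.06 in Erbb2 cells at 10 µM and 0.01 in untransfected cells.

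**Figure D1:**
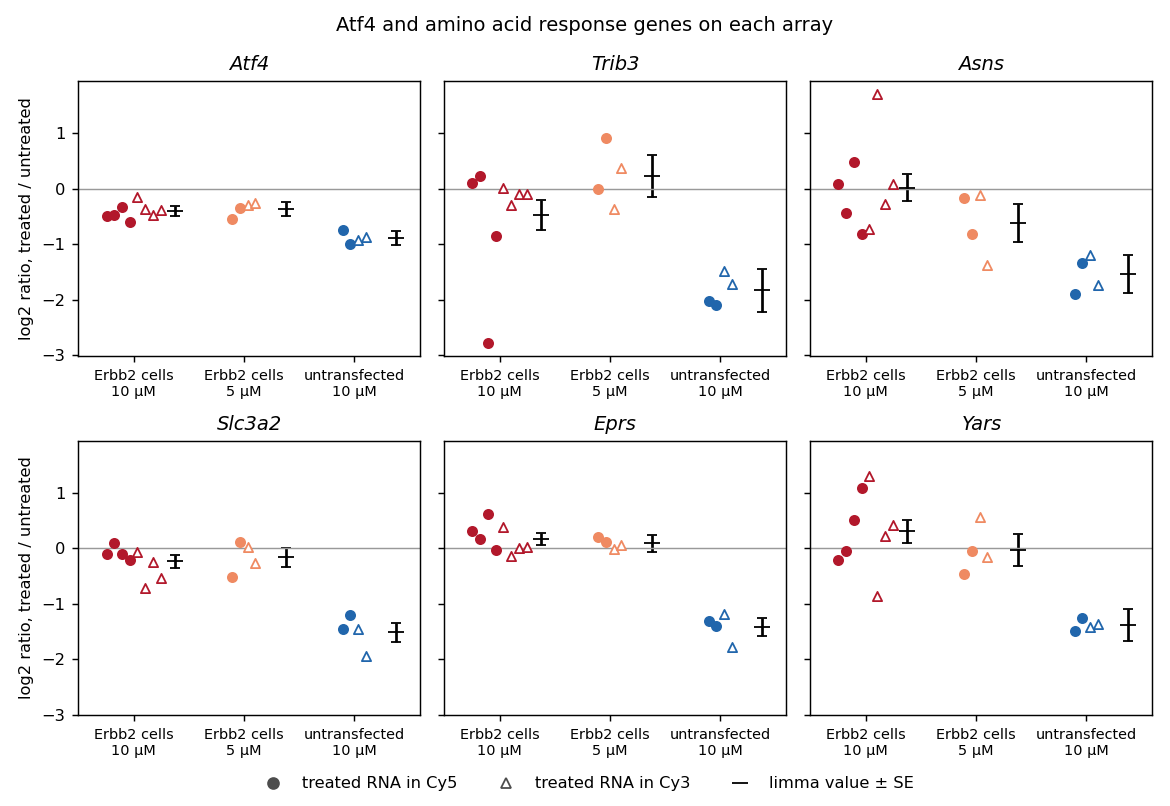
Log2 ratio of treated over untreated cells for the 6 genes on each of the 16 arrays, with filled circles for treated RNA in Cy5 and open triangles for Cy3; the black bar is the limma value with its standard error. All 4 untransfected arrays lie below 0 for every gene, while in Erbb2 cells only Atf4 lies below 0 on all 12 arrays.

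Trib3 (228775) encodes a pseudokinase that is induced by Atf4 and damps it. Its promoter is shown, with the promoters of Asns and Yars further on, because these are the 3 members whose promoter window holds the core of the Atf4 and C/EBP composite element, searched as TGATGNAA on both strands. The windows, from RefSeq on build GRCm38.p6, run from 250 bases before to 50 bases after the gene start, and all 6 members had one. Of 32851 such windows of all genes, 3.97% hold TGATGNAA. Capitals mark the match, which for Trib3 is TGATGTAA on the strand opposite to the gene, starting 15 bases into the transcript.
Trib3 promoter, chr2:152344011-152344310, minus strand: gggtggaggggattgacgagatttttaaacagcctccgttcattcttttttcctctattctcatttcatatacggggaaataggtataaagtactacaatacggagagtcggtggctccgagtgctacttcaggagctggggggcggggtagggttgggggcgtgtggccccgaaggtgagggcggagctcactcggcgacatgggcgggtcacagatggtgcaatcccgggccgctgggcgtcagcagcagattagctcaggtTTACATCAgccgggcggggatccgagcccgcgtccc
A match of letters does not show binding, and the windows of Atf4, Slc3a2 and Eprs hold no TGATGNAA.

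Trib3 had log2 ratios of 0.10, 0.24, -2.79, -0.86, 0.02, -0.29, -0.09 and -0.10 on arrays 1 to 8 of Erbb2 cells at 10 µM. At 5 µM they were -0.01, 0.91, -0.37 and 0.37, and in untransfected cells they were -2.03, -2.10, -1.49 and -1.72. Array 3 of Erbb2 cells at 10 µM, an array of wide spread, lay below all 4 untransfected arrays, and the other 11 Erbb2 arrays lay above them. The fitted values were -0.47 ± 0.27, 0.23 ± 0.38 and -1.84 ± 0.38, the last of these 3.57-fold lower in treated than in untreated cells. Without arrays 3, 5 and 6 the value in Erbb2 cells at 10 µM was -0.14, and without array 3 alone it was also -0.14. At 5 µM it was -0.09 without array 2 and 0.51 without array 3. In untransfected cells Trib3 had the lowest value of the 6 genes and ranked 45 from the lowest of 12420 features.

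Asns (27053) makes asparagine from aspartate and glutamine. Its human counterpart is the textbook gene for promoter control by amino acid supply, through a nutrient-sensing element with the core TGATGAAA and a second element, GTTACA. Both strings stand in the mouse window, with first bases 23 and 3 bases before the gene start, and are in capitals. GTTACA occurs in 8.25% of all windows.
Asns promoter, chr6:7693160-7693459, minus strand: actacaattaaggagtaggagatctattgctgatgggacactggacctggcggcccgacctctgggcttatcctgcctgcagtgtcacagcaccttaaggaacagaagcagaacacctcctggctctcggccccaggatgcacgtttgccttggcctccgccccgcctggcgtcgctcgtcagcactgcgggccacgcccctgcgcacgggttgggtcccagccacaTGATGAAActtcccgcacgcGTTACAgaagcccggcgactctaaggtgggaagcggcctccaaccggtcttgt

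Asns log2 ratios in Erbb2 cells at 10 µM were 0.09, -0.43, 0.48, -0.82, -0.72, 1.72, -0.27 and 0.09. At 5 µM they were -0.18, -0.82, -0.11 and -1.37, and in untransfected cells -1.89, -1.35, -1.20 and -1.74. Erbb2 arrays at 10 µM were split evenly around 0, while the 4 arrays at 5 µM were all below it and array 4 of that dose reached into the untransfected range. The fitted values were 0.02 ± 0.24, -0.62 ± 0.34 and -1.54 ± 0.34. The value at 10 µM in Erbb2 cells, near 0, had no settled sign: it ran from -0.23 without array 6 to 0.14 without array 5, and was also below 0 without array 1 or 3. Without arrays 3, 5 and 6 together the value in Erbb2 cells at 10 µM was -0.26. At 5 µM the value was -0.32 without array 4.

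Slc3a2 (17254) encodes the heavy chain CD98, which carries the light chains of several amino acid exchangers, among them the leucine transporter Slc7a5 and the cystine transporter Slc7a11, to the cell surface. Its log2 ratios were -0.11, 0.10, -0.10, -0.20, -0.06, -0.71, -0.25 and -0.55 in Erbb2 cells at 10 µM. At 5 µM they were -0.52, 0.12, 0.02 and -0.26, and in untransfected cells -1.46, -1.20, -1.46 and -1.94. The Erbb2 arrays lay near or somewhat below 0, and all 12 were above the highest untransfected array. Fitted values were -0.24 ± 0.12, -0.16 ± 0.17 and -1.52 ± 0.17, the last 2.86-fold lower in treated cells. The value at 5 µM was 0.0126 without array 1 and -0.27 without array 3. The standard error of Slc3a2 in untransfected cells was smaller than that of Trib3 or Asns, but it pools the spread within all groups. The untransfected arrays themselves had an SD of 0.31 for Slc3a2, 0.28 for Trib3 and 0.32 for Asns.

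Eprs (107508) encodes the synthetase that charges transfer RNA with glutamate and with proline. Averaged over its kept probes, it had 0.32, 0.16, 0.62, -0.03, 0.38, -0.14, -0.00 and 0.02 in Erbb2 cells at 10 µM. At 5 µM it had 0.20, 0.12, -0.02 and 0.05, and in untransfected cells -1.30, -1.40, -1.19 and -1.79. The Erbb2 arrays scattered around 0 and none came near the untransfected ones. Fitted values were 0.17 ± 0.11, 0.09 ± 0.16 and -1.42 ± 0.16.

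Probe 19538 of Eprs lay above 0 on all 12 Erbb2 arrays, from 0.15 to 0.42 at 10 µM and from 0.08 to 0.29 at 5 µM, and below 0 on all 4 untransfected arrays, from -2.26 to -1.20. Probe 1420 had no common sign in Erbb2 cells, with 4 of 8 arrays above 0 at 10 µM and 3 of 4 at 5 µM, but was below 0 on all 4 untransfected arrays, from -1.42 to -0.98. At 10 µM in Erbb2 cells the probes shared a sign on 4 of 8 arrays, so the small positive values there were not a property of both probes. In untransfected cells their fitted values were -1.62 ± 0.16 for probe 19538 and -1.23 ± 0.20 for probe 1420. Another Eprs probe, 360, had values on 11 arrays and was not kept. In untransfected cells it ran from -2.88 to 0.31, wider than the kept probes.

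**Figure D2:**
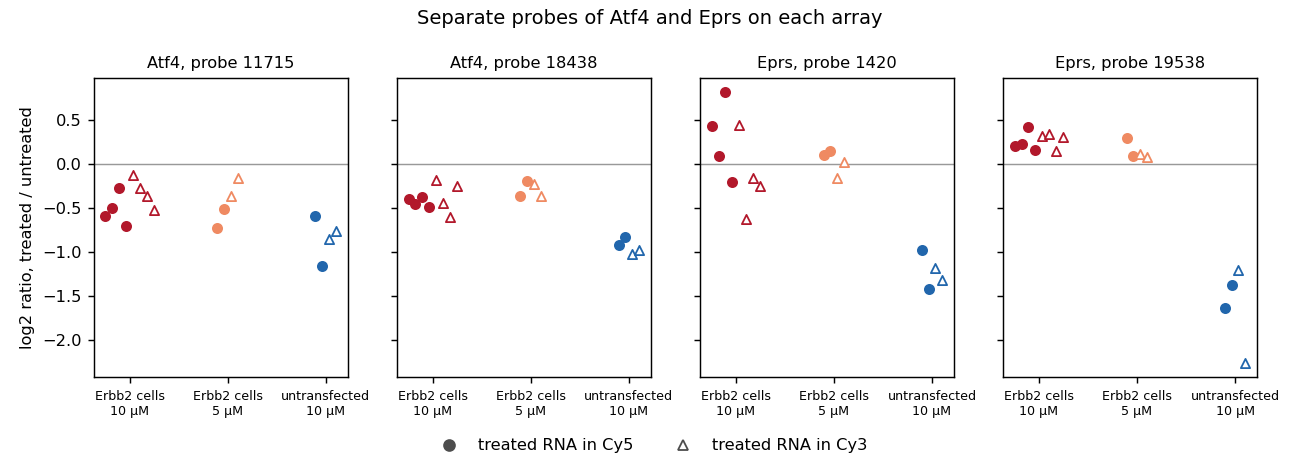
Log2 ratio of treated over untreated cells for each kept probe of Atf4 and Eprs on each array, with filled circles for treated RNA in Cy5 and open triangles for Cy3. The Atf4 probes lie below 0 on all 16 arrays, and Eprs probe 19538 lies above 0 on all 12 Erbb2 arrays and below 0 on all 4 untransfected arrays.

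Yars (107271) encodes the tyrosyl-tRNA synthetase. Its promoter window holds TGATGCAA on the strand of the gene, starting at base 4 of the transcript, in capitals here.
Yars promoter, chr4:129189653-129189952, plus strand: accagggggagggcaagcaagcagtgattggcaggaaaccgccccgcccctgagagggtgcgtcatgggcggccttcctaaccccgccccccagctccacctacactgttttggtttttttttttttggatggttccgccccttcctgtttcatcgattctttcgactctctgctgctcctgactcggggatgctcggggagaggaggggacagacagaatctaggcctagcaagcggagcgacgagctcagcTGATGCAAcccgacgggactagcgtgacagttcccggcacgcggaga
Yars log2 ratios were -0.22, -0.04, 0.52, 1.08, 1.31, -0.86, 0.23 and 0.43 in Erbb2 cells at 10 µM. At 5 µM they were -0.46, -0.06, 0.57 and -0.15, and in untransfected cells -1.49, -1.25, -1.43 and -1.36. The 4 untransfected arrays were close together (SD 0.10) and below every Erbb2 array, whose spread at 10 µM was wide (SD 0.70). Fitted values were 0.31 ± 0.20, -0.03 ± 0.29 and -1.38 ± 0.29. Without arrays 3, 5 and 6 the value in Erbb2 cells at 10 µM was again 0.31. At 10 µM in Erbb2 cells the value was 0.16 without array 5, 0.18 without array 4 and 0.49 without array 6, and at 5 µM it ran from -0.23 without array 3 to 0.12 without array 1.

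In order of fitted value in untransfected cells the genes ran Trib3, Asns, Slc3a2, Eprs, Yars and Atf4. The 5 from Trib3 to Yars lay between -1.84 and -1.38, with neighbours closer than their standard errors, and Atf4 at -0.89 ± 0.13 was the nearest to 0. All 6 genes lay below 0 on all 4 untransfected arrays, which held for 16% of features with 16 values. For 4 of the 6, Atf4, Slc3a2, Eprs and Yars, every untransfected array lay below every Erbb2 array, against 2.25% of those features. With the treated RNA of untransfected arrays in the other dye, every untransfected array would lie above every Erbb2 array for 4 of the 6, Atf4, Trib3, Slc3a2 and Eprs, against 4.21% of those features. These groups are the ones the genes were chosen from, so the counts describe the choice. The median of the 6 genes on single arrays ran from -0.40 to 0.19 in Erbb2 cells at 10 µM, and from -1.73 to -1.30 in untransfected cells.

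By the limma fit over all features, at a Benjamini-Hochberg adjusted p under 0.05, the calls were 1 of 6 members in Erbb2 cells at 10 µM (Atf4), 0 at 5 µM and 6 in untransfected cells. The share of all features called was 1.26% (0.862% lower, 0.403% higher) for the first, 0.209% (0.0322% lower, 0.177% higher) for 5 µM and 2.73% (2.13% lower, 0.596% higher) for untransfected cells. Nothing is read from these counts, since the genes were chosen with these results known. At 5 µM Atf4 had -0.37 ± 0.13, close to its value at 10 µM but with a larger standard error over 4 arrays.

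The response of Erbb2 cells minus that of untransfected cells at 10 µM was 1.69 ± 0.35 for Yars, 1.59 ± 0.19 for Eprs, 1.56 ± 0.42 for Asns, 1.36 ± 0.47 for Trib3, 1.28 ± 0.21 for Slc3a2 and 0.48 ± 0.16 for Atf4, on the log2 scale. All 6 differences had the same direction, less negative or above 0 in Erbb2 cells. Eprs, Slc3a2 and Yars were among the features called in this contrast, 0.813% in all, 0.628% as higher and 0.185% as lower, which again is a description. If the treated RNA of the untransfected arrays was in the other dye, the untransfected values would turn to between 0.89 and 1.84 and the differences would change sign.

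Between the doses in Erbb2 cells, limma called 0 of 12420 features, with 538 at an unadjusted p under 0.05. The differences, as 10 µM minus 5 µM, with their 95% intervals were -0.04 (-0.39 to 0.30) for Atf4, -0.07 (-0.52 to 0.37) for Slc3a2 and 0.08 (-0.33 to 0.49) for Eprs. Those of Trib3 (-0.70, from -1.70 to 0.30), Asns (0.64, from -0.26 to 1.53) and Yars (0.33, from -0.43 to 1.09) had wider intervals. The genes were chosen with their group values known, so these intervals are a description. Both doses share untreated Erbb2 cells as their counterpart.

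The likeness of the other genes to Atf4 was described by Pearson's r over the turned ratios of up to 16 arrays, for 7365 genes with at least 14 values. The arrays fall into groups with different responses, so r mostly follows the step between untransfected and Erbb2 cells. Arrays of a group share their treatment and line. The members were chosen with that step known, so their ranks describe the choice. Eprs ranked 13 with r = 0.86, Slc3a2 ranked 37 with 0.81, Yars 77 with 0.76, Trib3 274 with 0.59 and Asns 374 with 0.54, where the median of all genes was -0.01. Over the 12 Erbb2 arrays alone, which do not depend on the doubted dye labels, r was 0.24 for Eprs, 0.18 for Slc3a2, 0.24 for Yars, 0.00 for Trib3 and -0.05 for Asns. With the other dye on untransfected arrays, a setting added after seeing the data, the ranks were 42 for Eprs, 41 for Slc3a2, 228 for Yars, 205 for Trib3 and 229 for Asns, with r from 0.72 to 0.93.

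The 6 genes most like Atf4 were Calr and Hspa5, chaperones of the endoplasmic reticulum (r = 0.92 each), the saposin precursor Psap (0.92), the lymphocyte receptor Cd5 (0.91), the haem oxygenase Hmox1 (0.90) and the esterase Esd (0.89). Within the 12 Erbb2 arrays, which were part of this choice, their r ran from 0.37 for Esd to 0.72 for Calr. With the other dye on untransfected arrays Hspa5 ranked 1, Esd 3, Hmox1 31 and Calr 35, while Psap (r = -0.21) and Cd5 (r = -0.90) were no longer alike. Likeness of pattern does not mean a like direction: Psap had 0.97 in Erbb2 cells at 10 µM and -0.76 in untransfected cells, while Hspa5 had -0.49 and -1.68.

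**Figure D3:**
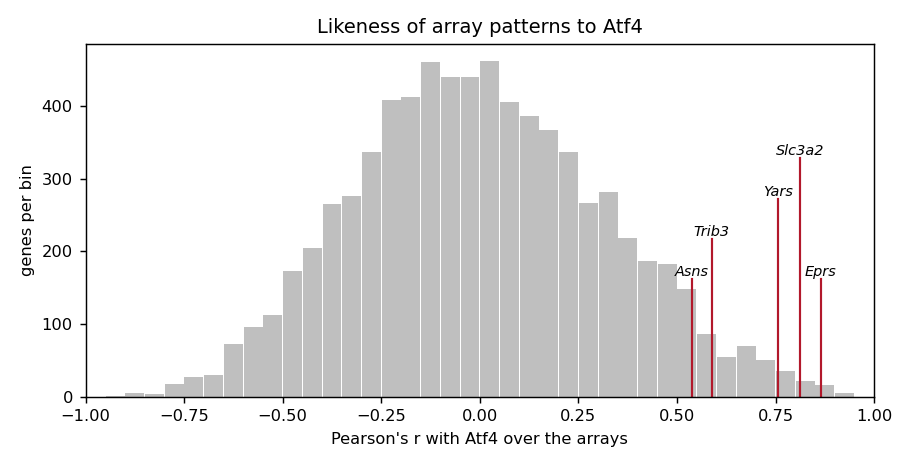
Number of genes by Pearson's r with Atf4 over the arrays, in bins of 0.05, with red lines at Eprs, Slc3a2, Yars, Trib3 and Asns. All 5 lie in the upper tail, from 0.54 for Asns to 0.86 for Eprs. They were chosen with the step between untransfected and Erbb2 cells known, so this place describes the choice. Over the 12 Erbb2 arrays alone r ran from -0.05 for Asns to 0.24 for Yars.

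The rest of the pathway was described with 7 lists of genes by role, 114 in all without the 6 members, of which 57 were measured. In Erbb2 cells at 10 µM 1 of the 57 was lower and 0 higher past the threshold in limma, and at 5 µM 0 passed in either direction. In untransfected cells 7 were lower and 0 higher, so 12.3% of the list genes against 2.13% of all features called as lower. The median of the 57 was -0.03 with Erbb2 at 10 µM, 0.00 with Erbb2 at 5 µM and -0.47 without Erbb2, beside medians of all features of -0.00, -0.02 and 0.03. The lists were drawn up with earlier results of these data known. The 8 calls of list genes against 0 were 1 in Erbb2 cells at 10 µM and 7 in untransfected cells. Each was lost with no array turned. Each was also lost when fitted on the arrays of its group alone, with adjusted p in limma of 0.211 to 0.297. On the untransfected arrays alone 0 of all features passed, so that fit cannot set these 7 genes apart from others.

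Amino acid transporters held 3 of the 7 genes that fell in untransfected cells. Slc38a2, a sodium-coupled neutral amino acid importer and a known target of the amino acid response, fell in Erbb2 cells at 10 µM by 0.52 ± 0.10 (adjusted p = 0.0203 in limma, below 0 on 8 of 8 arrays) and in untransfected cells by 1.18 ± 0.14 (adjusted p = 0.000358, 4 of 4 arrays). At 5 µM it had -0.13 ± 0.14. Its arrays ran from -0.80 to -0.25 in Erbb2 cells at 10 µM and from -1.32 to -0.97 in untransfected cells. The share of all features whose ranges lie apart in this way was not counted. The difference between the lines at 10 µM, 0.66 ± 0.18, did not pass (adjusted p = 0.131 in limma). The call in Erbb2 cells was lost when any 1 of arrays 1, 2, 4, 7 and 8 was left out, with adjusted p over the left-out arrays from 0.0187 to 0.0654.

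Slc6a9, the glycine transporter GlyT1, ran from 0.03 to 0.46 on the 8 arrays of Erbb2 cells at 10 µM. Its fitted value there, 0.18 ± 0.12, did not pass. At 5 µM Slc6a9 had -0.29 ± 0.17, with 3 of 4 arrays below 0, and did not pass either. In untransfected cells it fell by 1.49 ± 0.17 (adjusted p = 0.000206 in limma), with -1.39, -1.80, -1.37 and -1.39 on the 4 arrays. The difference between the lines was 1.67 ± 0.21 (adjusted p = 0.000684 in limma), and Slc6a9 was the one list gene to pass in that contrast. This call held on the arrays of both groups alone (adjusted p = 0.00261 in limma) and without any 1 of their arrays. It was lost with no array turned (adjusted p = 0.997) and with replicate number as a block (adjusted p = 0.477). In each of these settings 0 features passed between the lines. The difference turned to -1.30 with the other dye on untransfected arrays (adjusted p = 0.00159 in limma). Slc1a5, the glutamine and neutral amino acid exchanger, fell in untransfected cells by 1.85 ± 0.42 (adjusted p = 0.0301 in limma, 4 of 4 arrays), a call lost when any 1 of those arrays was left out, with adjusted p from 0.0622 to 0.173. Slc7a7 (1.14 ± 0.60 in Erbb2 cells at 10 µM) and Slc38a1 (-0.87 ± 0.30 in untransfected cells) did not pass.

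A pair of serine synthesis enzymes fell as well. Phgdh, which opens the pathway, fell in untransfected cells by 1.21 ± 0.25 (adjusted p = 0.0159 in limma), and Psat1, the aminotransferase that follows, by 0.84 ± 0.21 (adjusted p = 0.0405), each below 0 on 4 of 4 arrays. Each call was kept in 1 of the 4 fits that leave out an untransfected array, with adjusted p from 0.0446 to 0.102 for Phgdh and from 0.0151 to 0.219 for Psat1. The 11 measured amino acid synthesis enzymes had a median of -0.06 in Erbb2 cells at 10 µM and of -0.545 in untransfected cells, where all 11 fitted values were below 0, as were 46.9% of all features, and 2 passed the threshold. Cth, an enzyme of cysteine synthesis (0.74 ± 0.29 in Erbb2 cells at 10 µM, -0.66 ± 0.45 in untransfected cells), and the glutamine synthetase Glul (-0.73 ± 0.30 and -0.20 ± 0.42 in those groups) did not pass.

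Of the other targets and feedback genes, Chac1, which degrades glutathione and is induced through Atf4, had -0.21 ± 0.16 in Erbb2 cells at 10 µM and fell in untransfected cells by 1.22 ± 0.23 (adjusted p = 0.00672 in limma). Its untransfected ratios were -0.89, -1.38, -1.08 and -1.54, and the call was lost without array 2 (adjusted p = 0.0612, from 0.0171 to 0.0612 over the left-out arrays). Ndrg1 (-1.54 ± 0.88) and the translation repressor Eif4ebp1 (-1.25 ± 0.42) did not pass in untransfected cells. The 8 measured genes of this list had a median of -0.29 in Erbb2 cells at 10 µM and -0.55 in untransfected cells. Fitted values were below 0 for 8 of 8 and for 6 of 8, beside 50.6% and 46.9% of all features. In Erbb2 cells at 10 µM 0 of the 8 passed. In the list of eIF2 and its regulators, Eif2s3x, the gamma subunit of eIF2, fell in untransfected cells by 0.76 ± 0.16 (adjusted p = 0.0170 in limma), the 1 of 6 measured members to pass, and its call was kept in 1 of 4 fits without an array (adjusted p from 0.0343 to 0.108). Eif2b4, of the exchange factor eIF2B (-1.19 ± 0.49 at 5 µM), and the RNA-activated kinase Eif2ak2 (0.73 ± 0.30 in untransfected cells) did not pass.

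Of the 4 measured transcription factors of the response 0 passed in any group. Ddit3, the stress factor Chop, ran from -1.99 to 3.08 in Erbb2 cells at 10 µM, with a fitted value of 0.55 ± 0.38, and this wide spread entered the shared error. In untransfected cells it had -1.26, -1.61, -1.70 and -1.55 and a fitted value of -1.53 ± 0.54. Xbp1, a factor of the unfolded protein response (1.38 ± 0.80 at 5 µM), did not pass.

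Of the 15 other measured cytosolic synthetases and scaffold proteins 0 passed in any of the 3 groups. Their median in Erbb2 cells at 10 µM was 0.02. Their fitted values in untransfected cells ran from -0.88 to 0.26, with a median of -0.35 (-0.18 without array 2). Of the 15, 14 lay below 0, beside 46.9% of all features. Eprs (-1.42) and Yars (-1.38) lay below the lowest of them. Both were chosen with these values known, so their place describes the choice. Kars (1.14 ± 0.59) and Mars1 (1.05 ± 0.41) had the greatest values, at 5 µM, and did not pass. The 4 measured mitochondrial synthetases had a median of 0.07 in untransfected cells, and Mars2 (-1.23 ± 0.45) and Sars2 (-0.63 ± 0.38) in Erbb2 cells at 10 µM did not pass.

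**Figure D4:**
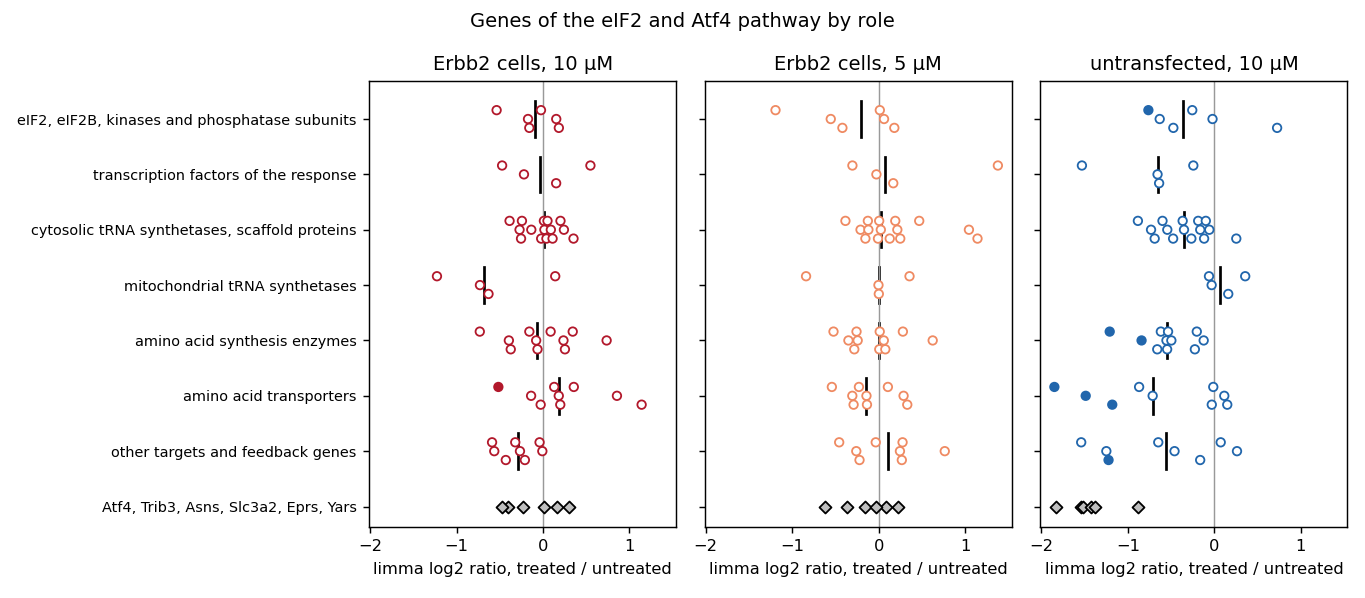
Limma log2 ratio of treated over untreated cells for each measured gene of the 7 role lists, with a panel for each group of arrays; filled points passed an adjusted p under 0.05, vertical bars are list medians and grey diamonds are the 6 chosen genes. Filled points number 1 for Erbb2 cells at 10 µM, 0 at 5 µM and 7 for untransfected cells, all below 0.

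The promoter element was more frequent among the list genes than among all genes, with TGATGNAA in 18 of their 110 windows, or 16.4%, against 3.97%. Some genes have several windows, and the 18 belong to 17 of 88 list genes. Chac1 and Eif2s3x are the genes that both fell in untransfected cells and hold it, while the windows of Slc6a9, Slc38a2, Slc1a5, Phgdh and Psat1 do not. Several list genes are known as Atf4 targets through such elements, so the share is no independent result.

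Some markers of cell identity were called in the untransfected group as well. Of 8 measured fibroblast markers 3 were lower there (Col1a2, Fn1 and Vim) and 0 higher. Fitted values were below 0 for 6 of the 8, and above it for Thy1 (0.51 ± 0.41) and Pdgfrb (0.01 ± 0.86), without a call. The list median was 0.11 in Erbb2 cells at 10 µM and -0.41 in untransfected cells. Vim was low in Erbb2 cells too, without a call: -0.28 ± 0.10 at 10 µM (8 of 8 arrays below 0) and -0.61 ± 0.14 at 5 µM (4 of 4), beside -0.55 ± 0.14 in untransfected cells. Of features measured on all 16 arrays, 1.78% lay below 0 on all 12 Erbb2 arrays. Of 6 epithelial markers 1 was higher in untransfected cells (Krt8), while Epcam had -0.295 ± 0.18 there, without a call. Their medians were 0.13 in Erbb2 cells at 10 µM and 0.69 in untransfected cells. Of 4 blood and immune markers 1 was lower in untransfected cells (Tyrobp), the 1 of the 4 below 0, with medians of -0.05 and 0.23 in those groups. Of all features 2.13% were called as lower and 0.596% as higher in untransfected cells. Of these 5 marker calls, that of Fn1 alone was kept without each 1 of the untransfected arrays. None of the 5 was kept on those arrays alone, where 0 of all features passed. The markers' part in the values of the amino acid response genes was not tested.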

How the data were processed

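RNA of treated and untreated cells was labelled with Cy3 and Cy5 and hybridised to 16 cDNA arrays, per the labels' protocols. The authors deposited 1 log ratio per probe and array, read here as log2. The base was settled from the values: the 2 most repeated values of an array lie 1 apart on 14 arrays and 0.585 apart on 2, as log2 ratios of small whole numbers do. A repeated top value per array was read as log2 of 100000 plus the array's own constant and set to missing (1755 of 325680 cells, beside 38737 empty ones). That constant was below 0 on all 16 arrays, whichever dye held the treated RNA. Image analysis, background correction and normalization were not given in the sources used here. The label protocol speaks of organs and animals and did not enter the grouping, and the title of 1 untransfected array carries no replicate number. The ratios were read as Cy5 over Cy3 and turned by the dye label of channel 1. Before turning, arrays of opposite labels had a mean Spearman's rho over probes of -0.00 (Erbb2, 10 µM), -0.01 (Erbb2, 5 µM) and -0.13 (untransfected), and arrays of like labels 0.06, 0.11 and 0.18.

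Probes needed 3 values in a group of 4 and 6 in the group of 8, in both dye arrangements (14813 probes), and were averaged by gene. Symbols came from the platform annotation, and 13994 of 14030 probes with 1 symbol matched RefSeq by Entrez Gene ID. limma 3.58.1 in R 4.3.3 fitted 3 groups and a dye term, two-sided, with Benjamini-Hochberg adjustment. For the dye term limma called 0 features, and 1000 had an unadjusted p under 0.05. The p-values measure only the spread between arrays, which may be technical. Between groups, arrays of equal replicate number had deviations from their group means with r from -0.03 to 0.04 over 12 pairs. This does not exclude shared cultures, and arrays 3 and 4 of Erbb2 cells at 10 µM differ in dye from their partners.

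The members and lists were chosen with earlier results of these data known. Named genes are the 6 members, up to 5 passing and 2 other genes of each list by size, and the 6 most like Atf4. Markers were named where they passed, or where they went against the called markers of their list.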

Additional observations from a re-analysis of the deposited data

Results flagged for a closer look

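Trib3 had -2.79 on array 3 of Erbb2 cells at 10 µM, far from the other 7 arrays of the group. Among the list genes, the same kind of lone value was seen for Sars2 (-3.32) and Ndrg1 (-5.00) on array 5 of Erbb2 cells at 10 µM, for Eif2b4 (-3.91) and Mars1 (3.35) on array 3 and Xbp1 (4.74) on array 1 of Erbb2 cells at 5 µM, and for Slc6a9 (-1.80) on array 2 of untransfected cells. These are 7 of 88 groups examined. The list genes were named by the size of their fitted values, which favours lone values. Atf4 and Eprs were examined both averaged and by probe, so no chance rate is given.

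Probe 19538 of Eprs lay above 0 on every Erbb2 array and below 0 on every untransfected array, with means 1.84 apart. This difference was not tested, and the share of all probes that split this way was not counted. The other kept Eprs probe, 1420, lay above 0 on 4 of 8 Erbb2 arrays at 10 µM and on 3 of 4 at 5 µM. Slc6a9 differed between Erbb2 and untransfected cells at 10 µM by 1.67 in the limma contrast.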

How the results depend on the processing

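When 1 array of its own group was left out, 3 of 48 member values turned sign in Erbb2 cells at 10 µM (all Asns), 4 of 24 at 5 µM (Trib3, Slc3a2 and Yars) and 0 of 24 in untransfected cells, where they ran from -1.90 to -0.85. With no array turned, Atf4 had 0.0125, Slc3a2 0.19, Eprs 0.0698 and Yars 0.0123 there. With the treated RNA in the other dye they were 0.89 for Atf4, 1.84 for Trib3, 1.54 for Asns, 1.52 for Slc3a2, 1.42 for Eprs and 1.38 for Yars. With no array turned, features called numbered 2 in Erbb2 cells at 10 µM, 0 at 5 µM (519 at an unadjusted p under 0.05), 4 in untransfected cells and 0 between the lines (663). Fitted on their own arrays the groups gave 22, 0 (875 unadjusted) and 0 (1621 unadjusted), and the lines 41. Probes with a value on every array gave 247, 73 and, between the lines, 189, with fewer features tested. At 5 µM, 16 passed with probes not averaged, 5 with at least 2 values in each group, 45 with arrays scaled (33 higher, 12 lower) and 147 with array weights. With the other dye in untransfected cells 351 differed between the lines. Without arrays 3, 5 and 6, an alternative chosen after seeing the data, 57 passed in Erbb2 cells at 10 µM. Leaving out 1 array gave 103 to 145, 5 to 24 and 213 to 372 in the groups, with 103 without array 1 or array 4 of Erbb2 cells at 10 µM, and 222 and 213 without arrays 1 and 2 of untransfected cells. At 5 µM the count was 5 or 6 without any 1 of its own 4 arrays. Between the lines it was 60 to 105, with 67, 63 and 60 without arrays 1, 2 and 4 of untransfected cells. Between the doses the count was 0 under each alternative, with 340 to 848 at an unadjusted p under 0.05. With replicate number as a block, 0 features differed between the lines (744 unadjusted; Slc6a9 1.92, adjusted p = 0.477 in limma) and 0 between the doses, and the labels give no shared culture for equal numbers. Where a value moved, the cause was not tested. Signal over background is unknown.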
